A study of Mus musculus with 16 samples.

Results

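The miR-17 to miR-92 cluster and its 2 paralog clusters were followed across 4 groups of small RNA libraries from mouse stromal cells and the exosomes they release. Members were all rows of the table named for miR-17, miR-18a, miR-18b, miR-19a, miR-19b, miR-20a, miR-20b, miR-25, miR-92a, miR-93, miR-106a, miR-106b or miR-363, with any locus number and both arms. The rule uses names only and gave 30 of 2386 miRNA arms, from 15 hairpins. AFT024 and BFC012 are stromal cell lines derived from C57BL/6 fetal liver at 14.5 dpc (days post coitum), and nothing in the labels gives either line a treatment or a transgene. AFT024 is labelled as supportive of hematopoietic stem and progenitor cells and BFC012 as not supportive. Each line was sequenced as cells and as secreted exosomes, which are small membrane vesicles, and from each a polyA and a small RNA library set was made. Exosome RNA of several extractions was pooled and split into technical replicates, so the 2 samples that the labels list per exosome group are not separate cultures. The tables hold 1 merged value per group. With 1 line of each kind and 1 value per group, differences carry no replicate error, and p-values were left out. A difference between the lines cannot be told apart from a difference tied to the support of stem cells.

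Each of these clusters is transcribed as a single primary RNA that is cut into several hairpins, and each hairpin yields a 5p and a 3p arm, of which usually one is loaded into Argonaute and kept. Bases 2 to 8 of an arm, the seed, largely set which mRNAs it represses. The clusters carry copies of 4 seed families, but the miR-106b to miR-25 cluster does not carry all 4. The miR-17 to miR-92a-1 cluster is known as an oncogenic cluster driven by Myc and E2F factors, and its loss in mice impairs B cell development.

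The hairpins of the miR-17 to miR-92a-1 cluster (6 hairpins) lie on chr14:115043671-115044506, plus strand, within the noncoding host gene Mir17hg. Those of the miR-106a to miR-363 cluster (6 hairpins) lie on chrX:52741693-52742567, minus strand. The miR-106b to miR-25 cluster (3 hairpins) lies on chr5:138165321-138165818, minus strand, in an intron of Mcm7. Positions and sequences are those of RefSeq for GRCm38.p6, the same assembly as the mm10 build named in the submitters' processing notes. RefSeq gave a mature sequence for 28 of the 30 arms. The sequences below are those that carried most reads of each seed family, with the seed in capitals.

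miR-92a-3p: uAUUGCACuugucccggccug
miR-25-3p: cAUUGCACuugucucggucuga
miR-17-5p: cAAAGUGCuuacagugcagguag
miR-20a-5p: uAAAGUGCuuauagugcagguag
miR-106b-5p: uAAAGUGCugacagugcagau
miR-93-5p: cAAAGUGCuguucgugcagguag
miR-18a-5p: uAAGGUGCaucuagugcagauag
miR-19a-3p: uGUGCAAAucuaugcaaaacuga
miR-19b-3p: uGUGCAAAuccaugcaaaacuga

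Family members differ outside the seed. Counted from 1 at the 5′ end, miR-92a-3p and miR-25-3p differ at 3 of 21 bases (U1C, C14U and C18U, miR-92a-3p first). Between miR-17-5p and miR-20a-5p there are 2 substitutions of 23 bases (C1U and C12U), and between miR-19a-3p and miR-19b-3p there is 1 (U11C). The 3p arms of hairpins 92a-1 and 92a-2 are identical over all 21 bases, as are those of 19b-1 and 19b-2 over all 23. A read of such an arm does not show which hairpin it came from, so the split between those rows is uncertain. The opposite arms of 4 hairpins enter the comparison of arms described further on, and their seeds belong to none of the 4 families.

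miR-92a-1-5p: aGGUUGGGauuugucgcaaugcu
miR-25-5p: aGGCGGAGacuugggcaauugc
miR-18a-3p: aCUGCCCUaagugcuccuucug
miR-106b-3p: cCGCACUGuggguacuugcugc

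Levels are given as the authors' normalized value (reads divided by a size factor) and as the whole reads recovered from it. Small RNA depth was 1120450 reads in the exosomes of AFT024 and 1247068 in those of BFC012, with 17293776 and 17547485 in the respective cells. A single read was worth 2.67, 2.66, 0.356 and 0.353 value units, in that order, which further lists of 4 values keep. An arm with 0 reads is therefore only limited to less than 3 reads, a value of 8.02 and 7.98 in the exosomes and 1.07 and 1.06 in the cells. Brackets after a read ratio or a share hold its 95% interval (exact Clopper-Pearson). Such intervals and limits cover counting error only, and PCR copies are not independent molecules. Fewer vesicles or cells and less RNA in each cannot be told apart. The choice of scale matters for exosomes against cells: RPM, which scales reads to the table total, multiplies each of those ratios by 2.05 in AFT024 and by 1.87 in BFC012 over the deposited scale. Between cells the factor is 1.01 and between exosomes 1.11. Shares within a hairpin or within the members do not depend on it.

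Markers of other cell types were unequal between exosomes and cells. The 8 erythroid arms summed to 66645 RPM in AFT024 exosomes and 50583 in BFC012 exosomes against 945 and 4528 in the cells. Among them miR-451a-5p, which red cell precursors make in bulk, had 10975 and 5080 exosome reads against 25 and 38. miR-486a-5p was a larger part of each sum, with 27862 and 23160 RPM in exosomes and 460 and 2138 in cells. The 8 leukocyte arms summed to 4263 and 2139 RPM in exosomes against 368 and 428 in cells, with miR-142a-5p at 2764 and 1032 reads against 23 and 42. The liver marker miR-122-5p had 91 and 138 exosome reads against 0 and 1. The 10 muscle arms summed to 141 and 130 RPM in exosomes against 2.26 and 3.82, with miR-1a-1-3p at 0 reads in every group. The 12 neural arms summed to 102 and 46.5 RPM in exosomes against 420 and 333 in cells. The 12 mesenchymal arms, which mark the labelled cell type, summed to 81039 and 54323 RPM in AFT024 and BFC012 cells and to 37311 and 32245 in their exosomes. These markers move with every exosome against cell ratio below, and their part in those ratios was not tested.

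Members together took 9.05% of all small RNA reads in AFT024 exosomes, 10.7% in BFC012 exosomes, 4.66% in AFT024 cells and 7.04% in BFC012 cells. Nearly all of this was 2 mature sequences that share a seed. miR-92a-3p, the last miRNA of the miR-17 cluster, and miR-25-3p, the last of the miR-106b cluster, dominated the members in all 4 groups, and the miR-25/92 seed family held 88.9%, 90.2%, 85.2% and 86.9% of member reads in the order above. The miR-17 seed held 7.56%, 7.31%, 8.63% and 7.75%. The miR-19 seed, which in mouse lymphoma models carries much of the cluster's oncogenic activity, held 1.21%, 0.598%, 1.65% and 1.58%. The miR-18 seed held under 1% throughout, from 0.0437% in BFC012 exosomes to 0.242% in AFT024 cells.

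**Figure D1:**
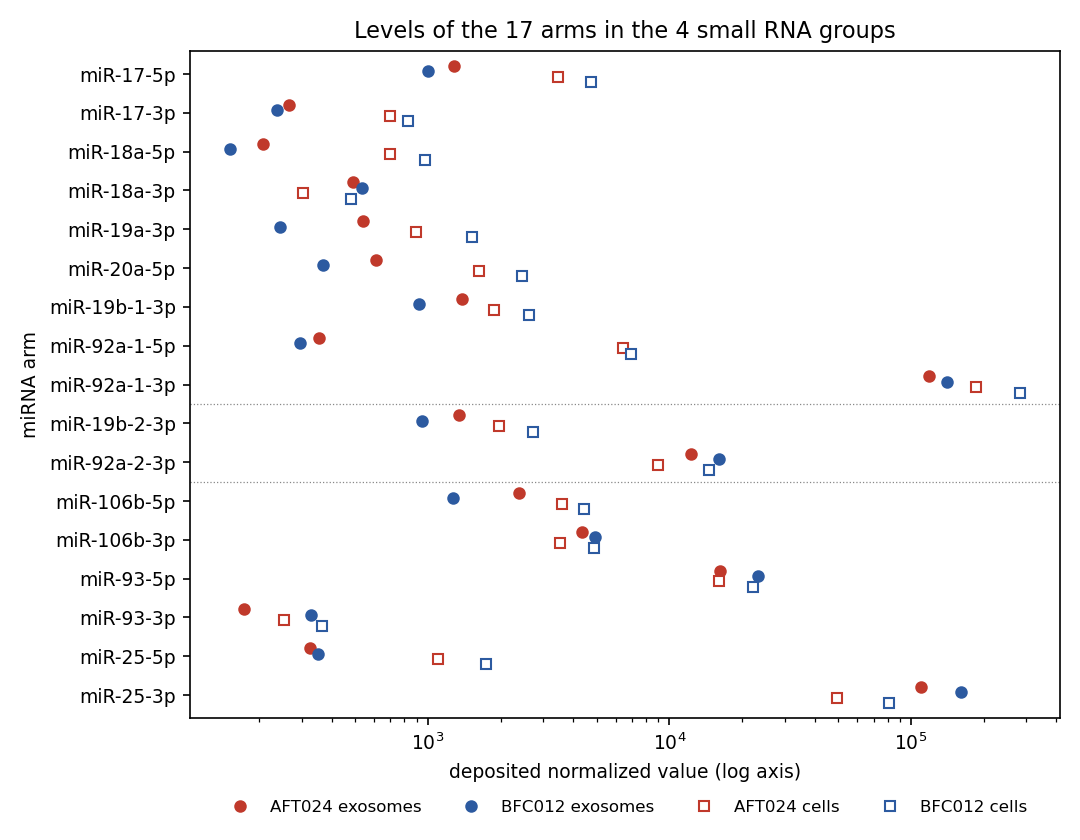
Normalized value on a log axis of the 17 arms that reached 100 in at least 1 group, by cluster from top to bottom (miR-17 to miR-92a-1, miR-106a to miR-363, miR-106b to miR-25, split by dotted lines). Filled circles are exosomes and open squares cells, in red for AFT024 and blue for BFC012. miR-92a-1-3p and miR-25-3p stand far to the right of all other arms, and miR-92a-1-5p and miR-25-5p show the cells to the right of the exosomes.

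In the miR-25/92 family the balance shifted between exosomes and cells. miR-92a-1-3p stood at 118599 and 141502 in exosomes (AFT024, then BFC012) and 186213 and 283352 in cells (likewise). miR-25-3p stood at 110211, 160900, 49223 and 81032. So miR-92a-1-3p was the higher of the pair in AFT024 exosomes and both kinds of cell, and miR-25-3p in BFC012 exosomes. Among all 2386 arms miR-25-3p ranked 5 and 3 in the exosomes of AFT024 and BFC012 and 25 and 18 in the cells, while miR-92a-1-3p ranked 4, 5, 5 and 5. Of the reads of miR-25-3p and both miR-92a-3p rows, miR-25-3p took 45.7% (45.4 to 46.0) in AFT024 exosomes and 50.5% (50.3 to 50.8) in BFC012 exosomes, against 20.1% and 21.4% (21.3 to 21.5) in the cells. The exosome and cell shares were far apart in both lines, and this share needs no size factor.

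**Figure D2:**
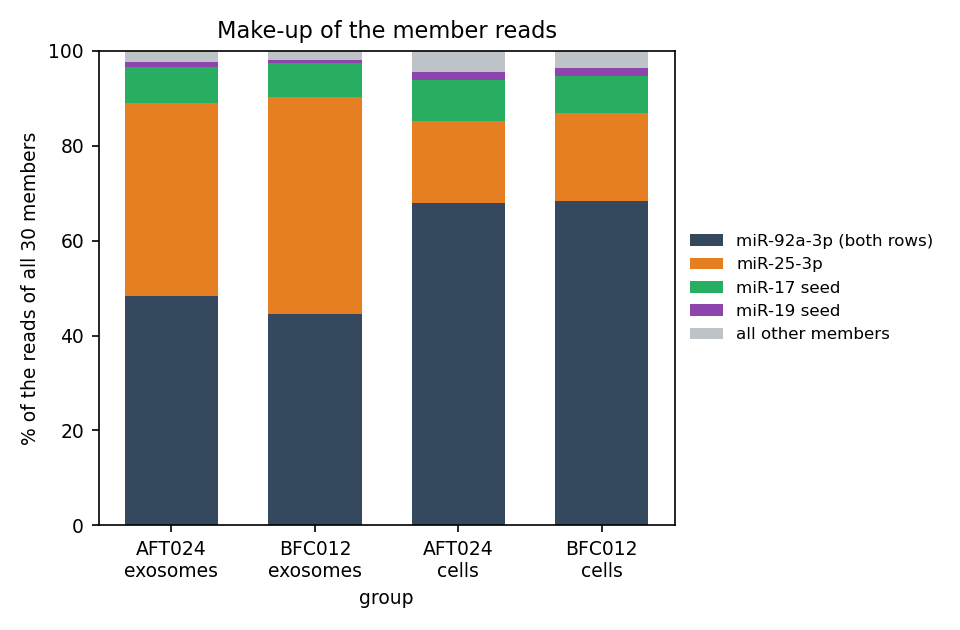
Share in percent of the reads of all 30 members, for each of the 4 groups, held by miR-92a-3p (both rows), miR-25-3p, the miR-17 seed, the miR-19 seed and the remaining members. miR-92a-3p holds 48.3% and 44.6% in the exosomes of AFT024 and BFC012 and 68.0% and 68.4% in the cells, with miR-25-3p filling most of the difference.

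By cluster, the miR-17 to miR-92a-1 hairpins gave 45.7% of member reads in AFT024 exosomes and 41.1% in BFC012 exosomes, against 70.5% and 69.7% in the cells. The miR-106b to miR-25 hairpins gave 49.3% and 54.1% in exosomes against 25.7% and 26.3% in cells. The rows of the miR-106a to miR-363 cluster gave 5.04%, 4.81%, 3.83% and 3.98%, nearly all of it in the miR-92a-2-3p and miR-19b-2-3p rows, whose sequences the miR-17 cluster also makes.

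The comparison of exosomes with their cells asks which members are over- or underrepresented in the vesicles. miR-25-3p was higher in exosomes of both lines on both scales. Both arms of miR-17 and the 5p arms of miR-18a, miR-19a, miR-20a, miR-25 and miR-92a-1 were lower by 2-fold or more in both lines on the deposited scale. Of these, miR-19a-5p had only 2 and 0 exosome reads. Of the 20 members that reached a value of 10 in a group, 2 lay above a 2-fold difference and 7 below it in AFT024 exosomes (on log2 of value plus 1), where 30.7% of all 818 such arms were higher and 35.6% lower. In BFC012 exosomes 1 member was higher and 13 lower, against 35.6% and 32.8% of all arms. The higher members were miR-25-3p and miR-363-3p in AFT024 and miR-363-3p in BFC012, where miR-25-3p lay just under 2-fold with a log2 ratio of 0.99. miR-363-3p had only 12 and 8 exosome reads against 0 in the cells and reached a value of 10 only in the exosomes, so its count as higher supports nothing. In RPM, 6 members were higher and 1 lower in AFT024, where 42.3% and 15.3% of arms were, and 4 higher and 8 lower in BFC012, where 41.9% and 19.2% were. The median log2 ratio of the 17 arms that reached 100 was -0.58 for AFT024 and -1.52 for BFC012, beside -0.22 and -0.04 for all 818 arms.

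miR-25-3p had a read ratio of 2.24 (2.21 to 2.26) in AFT024 and 1.99 (1.97 to 2.00) in BFC012, or 4.60 and 3.71 in RPM. The summed rows of miR-92a-3p had 0.670 (0.664 to 0.677) and 0.529 (0.524 to 0.533) as deposited, but 1.38 and 0.986 in RPM, so the direction of miR-92a-3p in AFT024 depends on the scale. The miR-92a-1-3p row of BFC012 lay only just past 2-fold. All 30 members together gave 0.944 (0.938 to 0.951) in AFT024 and 0.810 (0.806 to 0.815) in BFC012. That sum has no settled direction: it was 1.94 and 1.51 in RPM, 1.10 and 0.831 relative to the median arm, and 1.51 and 1.39 without miR-92a-1-3p alone. By cluster the ratio was 0.612 (0.606 to 0.618) and 0.478 (0.474 to 0.482) for the miR-17 to miR-92a-1 rows, and 1.81 (1.79 to 1.83) and 1.67 (1.65 to 1.68) for the miR-106b to miR-25 rows. In RPM the first turned to 1.26 in AFT024 and was 0.892 in BFC012, and the second was 3.72 and 3.11.

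**Figure D3:**
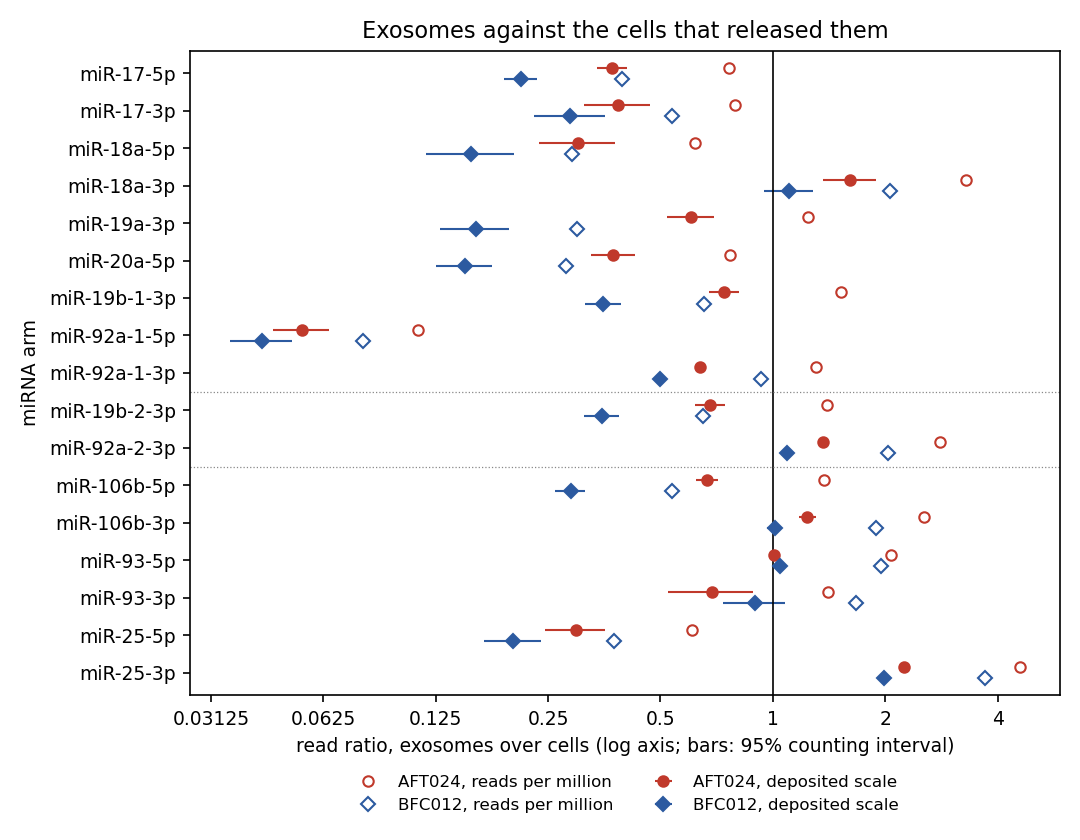
Read ratio of exosomes over cells on a log axis for the 17 arms, in AFT024 (red circles) and BFC012 (blue diamonds). Filled symbols with bars are the deposited scale with 95% counting intervals, open symbols the same reads in RPM, and the vertical line marks 1. miR-25-3p lies farthest to the right in both lines, and miR-92a-1-5p lies farthest to the left.

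The miR-17 seed family, whose textbook targets include Cdkn1a and other brakes on the cell cycle, did not move as one. miR-93-5p stood at 16201 and 23160 in exosomes (AFT024, then BFC012) and 16102 and 22139 in cells (likewise). On the deposited scale its exosome value was close to that of its own cells in each line, with read ratios of 1.01 (0.979 to 1.03) and 1.05 (1.02 to 1.07), but in RPM it was higher in exosomes at 2.07 and 1.95. miR-17-5p stood at 1281, 1000, 3458 and 4739, below its cells in both lines at 0.371 (0.337 to 0.406) and 0.211 (0.190 to 0.234). miR-20a-5p stood at 610, 367, 1633 and 2456 with ratios of 0.373 (0.326 to 0.427) and 0.149 (0.125 to 0.177). miR-106b-5p stood at 2389, 1276, 3580 and 4443, and was lower by less in AFT024, at 0.667 (0.622 to 0.714), than in BFC012, at 0.287 (0.262 to 0.315). miR-17-5p and miR-20a-5p were below 1 in RPM as well, at 0.761 and 0.767 in AFT024 and 0.394 and 0.279 in BFC012. miR-106b-5p was below 1 in RPM only in BFC012 (0.536, against 1.37 in AFT024).

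In the miR-19 family, miR-19a-3p stood at 540 and 245 in exosomes (AFT024, then BFC012) and 895 and 1531 in cells (likewise). miR-19b-1-3p stood at 1385, 917, 1871 and 2615, and miR-19b-2-3p at 1343, 949, 1973 and 2726. The exosome values were below those of the same line's cells for all 3 rows, with read ratios from 0.604 to 0.741 in AFT024 and from 0.160 to 0.351 in BFC012. In RPM the 3 rows were above 1 in AFT024, from 1.24 to 1.52, and below 1 in BFC012, from 0.298 to 0.655. The 2 rows of miR-19b-3p shared the reads almost evenly in every group, with 49.2% to 51.3% on the 19b-2 row.

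Rows of miR-92a-3p did not divide so evenly. The 92a-2 row held 9.39% (9.13 to 9.65) of miR-92a-3p reads in AFT024 exosomes and 10.2% (9.91 to 10.4) in BFC012 exosomes, against 4.61% (4.56 to 4.67) and 4.91% (4.87 to 4.96) in the cells. miR-92a-2-3p stood at 12290, 15997, 9007 and 14635 in the order given above. Both rows have the same 21 bases. Directly after those bases the hairpins differ, with UUG in 92a-1 and AGG in 92a-2. How reads that match both hairpins were assigned is not given in the sources used here, and its part in this share was not tested.

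Arms of the same hairpin come from the same precursor and are compared without any size factor. The 3p share of a hairpin's reads differed between exosomes and cells by 10 percentage points or more for 2 of 10 member hairpins in each line, miR-18a and miR-106b. Over all 163 hairpins with at least 100 reads in every group, 22.7% did so in AFT024 and 25.8% in BFC012, so the members' count is near the background. Between the cells of the lines 0 of 10 member hairpins differed by that much, against 4.29% of all, and between the exosomes 1 of 10 (miR-106b), against 12.3%.

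miR-18a changed its major arm. Its 3p arm took 70.1% (64.2 to 75.6) of the hairpin's reads in AFT024 exosomes and 77.8% (72.2 to 82.7) in BFC012 exosomes, against 30.5% (28.8 to 32.2) and 33.1% (31.7 to 34.6) in the cells. In values miR-18a-5p stood at 209, 152, 695 and 973 and miR-18a-3p at 489, 532, 305 and 482, so the 5p arm was higher in both kinds of cell and the 3p arm in both exosomes. The difference of 39.6 points in AFT024 ranked 6 and that of 44.7 points in BFC012 ranked 8 among the rises of 163 hairpins. miR-106b-3p, at 4365, 4930, 3527 and 4878, took 64.6% (62.7 to 66.5) of its hairpin's reads in AFT024 exosomes and 79.4% (77.7 to 81.1) in BFC012 exosomes, beside 49.6% (48.9 to 50.3) and 52.3% (51.7 to 52.9) in cells.

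The 5p arms of miR-92a-1 and miR-25 took a smaller share of their hairpins in exosomes than in cells. miR-92a-1-5p had 132 and 111 reads in AFT024 and BFC012 exosomes and 18125 and 19588 in the cells, at values of 353, 295, 6453 and 6909. Its share of the hairpin's reads was 0.297% (0.248 to 0.352) and 0.208% (0.171 to 0.251) in exosomes against 3.35% (3.30 to 3.40) and 2.38% (2.35 to 2.41) in cells. That is 11.3 times less in AFT024 and 11.4 times less in BFC012. It also had the lowest exosome over cell read ratio of the 17 arms on the deposited scale, 0.0547 (0.0458 to 0.0649) and 0.0427 (0.0351 to 0.0515), and stayed far below 1 in RPM at 0.112 and 0.0797. miR-25-5p, at 326, 351, 1101 and 1740, took 0.295% (0.245 to 0.352) and 0.218% (0.182 to 0.258) in exosomes against 2.19% (2.11 to 2.26) and 2.10% (2.04 to 2.16) in cells, which is 7.41 and 9.65 times less. The level of miR-25-5p itself differed by less, with exosome to cell read ratios of 0.296 (0.245 to 0.355) and 0.202 (0.168 to 0.240), or 0.609 and 0.377 in RPM. The share also moves with miR-25-3p, which was higher in exosomes, at 2.24 and 1.99.

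**Figure D4:**
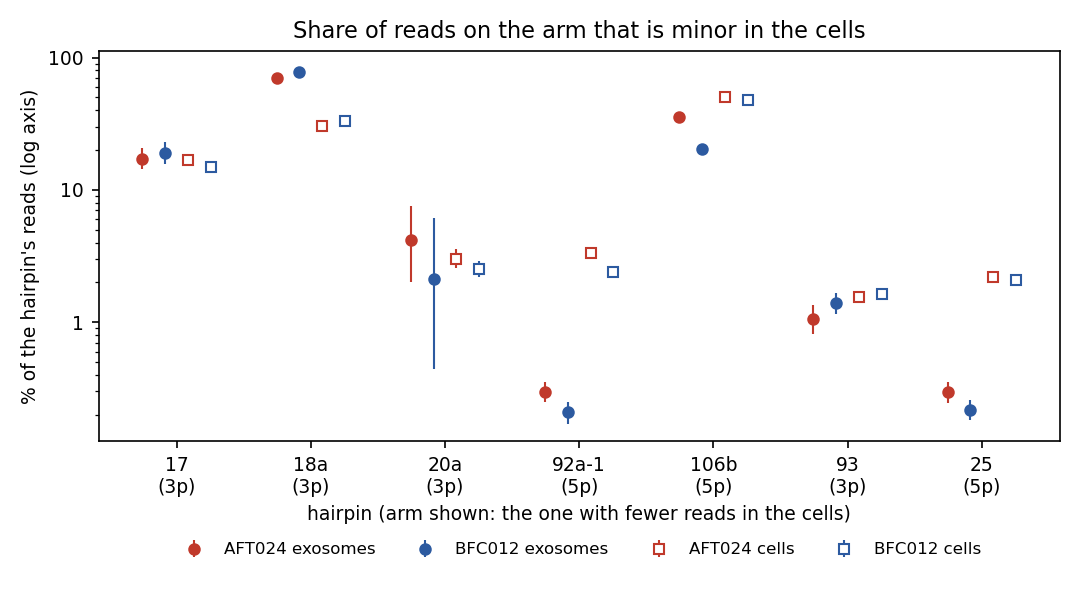
Percent of a hairpin's reads, on a log axis, on the arm with fewer reads in the cells of both lines together. The 7 member hairpins are those where that arm had at least 100 reads in both kinds of cell. For miR-106b the arm is 5p, which held 50.4% in AFT024 cells. Symbols are as in the plot of levels and bars are exact 95% binomial intervals. Exosomes of both lines lie lower for 92a-1, 25 and miR-106b, and higher for miR-18a. For miR-93 they lie lower in AFT024 (1.06% against 1.55%), and for miR-17 higher in BFC012 (19.1% against 14.8%). Intervals overlap those of the cells for miR-93 and miR-17 in the other line and for miR-20a.

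A lower minor-arm share in exosomes was not general. Among 100 hairpins whose minor arm had at least 100 reads in both kinds of cell, its share was lower in exosomes for 57 in AFT024 and 58 in BFC012. For the 7 member hairpins it was lower for 4 and 5. These include the 5p arm of miR-106b, which held 50.4% of its hairpin's reads in AFT024 cells and so was not minor there. From the strongest drop in share, miR-92a-1 ranked 8 and 7 of the 100 and miR-25 ranked 12 and 9. The minor arm of miR-17, miR-17-3p, stood at 267, 237, 696 and 824 and took from 14.8% of its hairpin in BFC012 cells to 19.1% in BFC012 exosomes. miR-93-3p, at 174, 327, 253 and 365, was 1.06% to 1.62% of its hairpin in all groups. Over the arms that reached 100, the median log2 ratio of exosomes to cells was -0.49 for the 10 3p arms and -1.43 for the 7 5p arms in AFT024, and -0.58 and -2.31 in BFC012. All 818 arms had 0 and -0.54 for AFT024, and 0.32 and -0.41 for BFC012.

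The comparison of the lines asks how the members differ between the line that supports stem cells and the one that does not. In cells, the 17 arms that reached 100 were lower in AFT024, each by less than 2-fold. The log2 ratio was below 0 for 17 of 17, where 47.4% of all 818 arms were below 0. Read ratios ran from 0.585 (0.556 to 0.614) for miR-19a-3p to 0.934 (0.915 to 0.953) for miR-92a-1-5p, and all 17 intervals lay below 1 on both scales. The share of all arms with intervals below 1 was not taken. At 2-fold, 0 of 20 members were higher and 0 lower, against 20.2% and 18.7% of all arms. The median of the 17 was -0.49 and that of all arms 0. Sums over the rows of each cluster were 0.665 (0.663 to 0.668) for miR-17 to miR-92a-1, 0.644 (0.640 to 0.647) for miR-106b to miR-25 and 0.633 (0.624 to 0.642) for the rows of miR-106a to miR-363. The last sum rests on the miR-92a-2-3p and miR-19b-2-3p rows, and the 10 arms that the miR-106a to miR-363 cluster alone can make had 16 against 14 cell reads (AFT024, then BFC012), a ratio of 1.15 (0.528 to 2.55). Of these, 9 in each kind of cell were on miR-106a-5p, which differs from miR-17-5p at only 1 of 23 bases. Whether such reads belong to the cluster was not tested. All members together gave 0.658 (0.657 to 0.660).

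Between the exosomes the members split. At 2-fold, 3 of 20 members were higher in AFT024 (miR-19a-3p, miR-19a-5p and miR-20a-3p) and 0 lower, where 24.2% and 23.5% of all arms were. The last 2 of these had at most 10 exosome reads, and where the call also asked for a counting interval off 1, miR-19a-3p alone was left. Of the 17 arms, 6 had an interval above 1 and 6 below. The share of all arms with such intervals was not taken on either scale, so these counts only describe the list. The 6 above were miR-19a-3p at 2.21 (1.72 to 2.86), miR-106b-5p at 1.87 (1.67 to 2.10), miR-20a-5p at 1.66 (1.34 to 2.07), miR-19b-1-3p at 1.51 (1.32 to 1.74), miR-19b-2-3p at 1.41 (1.23 to 1.62) and miR-17-5p at 1.28 (1.12 to 1.47). All of these belong to the miR-17 and miR-19 seed families, and all 6 were lower in AFT024 cells than in BFC012 cells. The miR-17 family as a whole went the other way in exosomes, at 0.794 (0.770 to 0.818) for its summed reads. Most of those reads were miR-93-5p, which stood at 0.699 (0.677 to 0.723). The summed miR-19 family stood at 1.55 (1.41 to 1.69). The 6 below 1 were both miR-92a-3p rows, miR-25-3p, miR-106b-3p and both arms of miR-93, with miR-93-3p lowest at 0.532 (0.387 to 0.724) and miR-25-3p at 0.685 (0.676 to 0.694). In RPM 8 intervals lay above 1, the same 6 with miR-18a-5p and miR-92a-1-5p, and 5 below, with miR-106b-3p no longer among them.

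**Figure D5:**
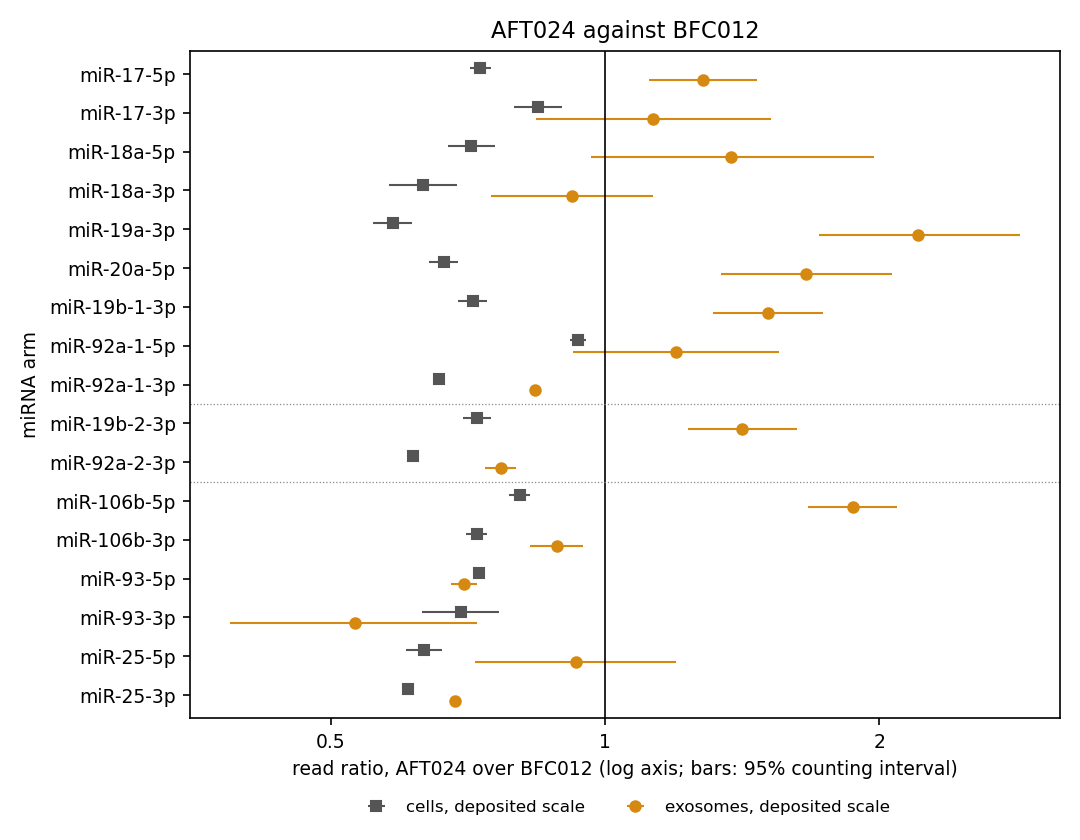
Read ratio of AFT024 over BFC012 on a log axis for the 17 arms, in cells (grey squares) and exosomes (orange circles), on the deposited scale with 95% counting intervals. The cell ratios all lie left of 1. The exosome ratios of 9 arms lie right of 1, and 6 of these, all of the miR-17 and miR-19 families, have intervals wholly right of 1. miR-93-5p, also of the miR-17 family, lies left of 1.

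Put as exosomes over cells, the log2 ratio was higher in AFT024 than in BFC012 for 15 of the 17 arms and for 49.9% of all 818 arms. The intervals of the lines lay apart for 13 of the 17. That share was not taken over all arms, and intervals narrow as reads rise, so it is not read as a trait of the members. The median difference was 0.54 for the 17 and -0.00383 for all arms. It was largest for miR-19a-3p at 1.91, followed by miR-20a-5p at 1.32 and miR-106b-5p at 1.21. miR-93-3p and miR-93-5p went the other way, at -0.38 and -0.06, without intervals that lay apart. The exosome to cell ratios of both lines, which share no library, followed each other across the 17 arms (Pearson r 0.92, Spearman rho 0.93). The arms share precursors and seeds, so these coefficients only describe the list.

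Over the 17 arms the difference between the lines went along with base composition, in a look taken after values were seen, but not over a wider set of arms. GC content of the 17 mature sequences ran from 34.8% in miR-19a-3p to 63.6% in miR-106b-3p. Its correlation with the AFT024 minus BFC012 difference was -0.82 (Pearson) and -0.79 (Spearman) over the 17 arms, with the arms lowest in GC leaning most to AFT024 exosomes. Over 485 kept arms with a RefSeq mature sequence of the same name, the coefficients were -0.06 and -0.06. Arms of one precursor, and the rows with identical sequences, are not independent points in the correlation over the 17. The miR-19 seed rows lie at the low end of GC, at 34.8% and 39.1%, so GC and seed family are not separated here. A cause was not tested.

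Of the 13 members that stayed under 100, 3 reached 10 and 10 did not. miR-20a-3p stood at 26.7, 7.98, 50.9 and 63.8, and miR-19a-5p at 5.35, 0, 27.4 and 49.0. miR-363-3p, which has the miR-25/92 seed but differs from miR-92a-3p at 11 of 21 bases, was found in exosomes only, with 12 reads in AFT024 and 8 in BFC012 against 0 of many more cell reads. The counting interval of its exosome to cell read ratio had a lower limit of 20.9 in AFT024 and 12.9 in BFC012. It reached a value of 10 only in the exosomes, so no conclusion is drawn from these limits. The 10 arms that the miR-106a to miR-363 cluster alone can make had 16, 12, 16 and 14 reads in all, and 4 of its arms (miR-106a-3p, miR-19b-2-5p, miR-20b-3p and miR-92a-2-5p) had 0 in every group. miR-92a-2-5p, the partner of an arm listed with 4595 to 41493 reads, was among these. The nearest members on either side of 100 were miR-93-3p, with a highest value of 365, and miR-20a-3p, with 63.8.

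Arms outside the rule with the same miR-25/92 seed were lower by far. miR-92b-3p stood at 1364 and 933 in exosomes (AFT024, then BFC012) and 664 and 583 in cells (likewise). Its exosome to cell read ratios were 2.05 (1.86 to 2.27) and 1.60 (1.42 to 1.80), both above 1 like those of miR-25-3p. miR-32-5p stood at 198, 125, 60.5 and 116, a ratio of 3.27 (2.45 to 4.32) in AFT024 and 1.08 (0.778 to 1.47) in BFC012.

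In the authors' deposited tables, q was under 0.05 for 18 of 30 members in AFT024 exosomes against cells, where 26.4% of all 2386 arms were, and for 20 of 30 in BFC012, where 29.4% were. For the cells of the lines it was 18 of 30 beside 24.4% of all arms, and for the exosomes 11 of 30 beside 13.3%. These are tests of merged reads, which compare libraries and not replicated conditions. The shares are not matched for read depth, since 20 of 30 members but only 818 of 2386 arms reached a value of 10. The scale of the q-values can also differ from the deposited one. miR-93-5p in AFT024 exosomes against cells had q under 0.05 at a read ratio of 1.01 as deposited and 2.07 in RPM.

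Host transcripts were read in the polyA libraries, in FPKM (fragments scaled to transcript length and library size). Mir17hg, the host of the miR-17 cluster, reached 5.11 FPKM in the cells of AFT024 and 6.15 in those of BFC012, with 808 and 905 reads. In exosomes it was near its limit of detection at 0.0702 and 0.105 FPKM, with 5 and 9 reads. Scaled to library size, Mir17hg reads gave an exosome to cell ratio of 0.0270 (0.00873 to 0.0632) for AFT024 and 0.0218 (0.00995 to 0.0416) for BFC012. Its exosome to cell ratio was thus below that of every arm of its cluster in the plot of ratios, although the scales of the polyA and small RNA libraries differ. Mcm7, a replicative helicase gene that hosts the miR-106b cluster, stood at 30.4 and 51.7 FPKM in exosomes and 109 and 107 in cells, with exosome to cell read ratios of 0.574 (0.546 to 0.603) and 0.655 (0.634 to 0.678). Between the cells, the read ratio of AFT024 over BFC012 was 0.813 (0.739 to 0.895) for Mir17hg and 0.855 (0.835 to 0.875) for Mcm7. In reads both lie on the same side of 1 as their miRNAs. The FPKM of Mcm7 hardly differed and leaned to the other side, at 109 in AFT024 and 107 in BFC012 cells, so its direction depends on the measure. Kis2, the host transcript of the miR-106a cluster, had 0 reads in all 4 groups. Primary transcripts are cut in the nucleus and partly lack polyA tails, so these levels do not stand for transcription.

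The 5 known activators (Myc, Mycn, E2f1, E2f2 and E2f3) and 16 textbook targets, 19 genes in all since E2f1 and E2f3 are both, were read in the same libraries. Myc, the activator of the miR-17 cluster, stood at 5.0 FPKM in AFT024 exosomes, 6.51 in BFC012 exosomes, 81.8 in AFT024 cells and 55.7 in BFC012 cells. Its read ratio between the cells was 1.45 (1.39 to 1.5), higher in AFT024. Mycn had 192 reads in BFC012 cells, at only 1.85 FPKM, and 0 in AFT024 cells. The counting interval of its read ratio of AFT024 over BFC012 cells had an upper limit of 0.0177. E2f1 and E2f3 were close between the cells, at 23.9 and 28.3 FPKM for E2f1 and 13.3 and 15.8 for E2f3.

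Of the 19 genes, 2 differed by 2-fold or more towards AFT024 and 1 towards BFC012 in the cells (log2 of FPKM plus 1), where 7.54% and 5.95% of 14969 genes were. The higher ones were Itga5, an integrin subunit gene, at 105.7 against 13.5 FPKM, and Socs1, a cytokine signalling inhibitor gene with little signal (2.90 against 0.331 FPKM), and the lower one was Mycn. Between the exosomes 2 were higher and 3 lower, where 7.14% and 15.0% of genes were. In AFT024 exosomes 2 of 19 were higher and 9 lower than in the cells, where 7.71% and 53.5% of genes were, and in BFC012 2 were higher and 7 lower, where 8.22% and 44.5% were. Numbers of this size stand near the share of all genes. Among the targets with the largest ratios, Ctgf, a matricellular growth factor gene repressed by the cluster, stood at 2.80 and 8.82 FPKM in the exosomes of AFT024 and BFC012 and at 113 and 161 in the cells. Thbs1, the thrombospondin 1 gene and another repressed target, stood at 18.6, 69.2, 238 and 453. Both were higher in BFC012 cells, with read ratios of AFT024 over BFC012 of 0.697 (0.680 to 0.714) and 0.520 (0.515 to 0.525), while Itga5 at 7.75 (7.44 to 8.08) and Socs1 at 8.80 (5.17 to 16.1) were higher in AFT024 cells. Itga5 stood at 3.26 and 1.02 FPKM in exosomes, Tgfbr2, a TGF-beta receptor gene, at 2.62 and 1.42 against 18 and 17.9 in cells, and Hif1a, which encodes the hypoxia factor, at 5.59 and 7.25 against 31.3 and 31.1.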

How the data were processed

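Small RNA and polyA RNA were measured in 16 samples of 8 groups, taken from the labels. Bowtie, TopHat and Cufflinks and the build mm10 appear, without role or version, per the submitters' processing notes. The counting tool is not given in the sources used here. Across the 4 groups, the authors' deposited small RNA signal is 1 merged value per group, reads divided by a size factor. The authors' deposited pairwise small RNA tables hold whole counts between the lines, and reads over a size factor for exosomes against cells, with the authors' q-values. The deposited polyA table holds FPKM per the file headers. Dividing each small RNA column by its smallest value gave whole reads for 100% of values (within 0.01), equal to those of the pairwise tables in all arms.

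Ratios were taken as log2 of value plus 1, and as reads with exact Clopper-Pearson 95% intervals. Arms were kept at a value of 10 or more in a group (818 of 2386), and genes at 1 FPKM or more. Call: 2-fold. Every member at 100 or more is named, with the hosts Mir17hg, Mcm7 and Kis2, and of the targets at most 5, those with the largest log2 ratio at 10 FPKM or more in the higher group; Myc, Mycn, Socs1, E2f1 and E2f3 are named beyond this, chosen after their values were seen. A listed target is not reported here. Members and lists were chosen with earlier results of these data known, and the rules of 100 reads and 10 points for arm shares, and the look at GC content, after seeing values. Python 3.11.15, pandas 2.3.3, numpy 2.4.6 and scipy 1.17.1 were used, and the scripts were tested on simulated data.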

Additional observations from a re-analysis of the deposited data

Results flagged for a closer look

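The direction of the difference between the lines was opposite in cells and exosomes for 6 arms, with counting intervals off 1 on both sides. The share of all arms that did so was not taken, so the count is not read as a trait of the members. The read ratio of AFT024 over BFC012 exosomes was 1.87 for miR-106b-5p, 1.28 for miR-17-5p, 2.21 for miR-19a-3p, 1.51 for miR-19b-1-3p, 1.41 for miR-19b-2-3p and 1.66 for miR-20a-5p. In the cells the same arms had ratios of 0.806, 0.730, 0.585, 0.715, 0.724 and 0.665. With 1 merged value per group this difference was not tested. In RPM the exosome ratios were 2.07, 1.42, 2.44, 1.67, 1.57 and 1.84. Erythroid markers did not share 1 pattern (reads of AFT024 against BFC012). miR-451a-5p had 10975 against 5080 in exosomes and only 25 against 38 in cells. miR-486a-5p had 31218 against 28882 in exosomes and 7963 against 37520 in cells. miR-144-5p was higher in AFT024 in both, at 790 against 338 and 18 against 4. The part of these markers in the ratios was not tested.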

How the results depend on the processing

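No paired analysis was possible because the tables hold 1 merged value per group, and for the same reason no replicate could be left out. In RPM, the members called for exosomes against cells were 6 higher and 1 lower in AFT024 and 4 and 8 in BFC012, and all arms called lower fell to 125 and 157. With no filter on low values, 4 members were higher in each line, and all arms called were 432 higher and 500 lower in AFT024 and 531 and 441 in BFC012. The unfiltered counts were 1 member lower between cells (all arms 275 higher, 243 lower) and 5 members higher and 2 lower between exosomes (all arms 378 and 429). Relative to the median arm 2 members were higher in BFC012 exosomes. Between exosomes, a pseudocount of 10 left 127 arms lower, and an interval off 1 left 1 member higher, with 119 and 97 arms. The summed ratio of all members was 1.94, 1.51, 0.662 and 0.849 in RPM, 1.10 and 0.831 relative to the median arm (exosomes against cells), and 1.51, 1.39, 0.661 and 0.720 without miR-92a-1-3p, in the order AFT024 exosomes against cells, BFC012 likewise, cells and exosomes. Of the 19 polyA genes, centring on the median gene gave 7 higher in AFT024 exosomes and 4 in BFC012; in reads 4 were higher in AFT024 exosomes than in cells and 4 than in BFC012 exosomes; with a pseudocount of 0.1, 5 were lower between exosomes. Causes were not tested, except that the scale alone moves every exosome to cell ratio. Depth limits the exosome values most, since a read there weighs 2.67 or 2.66 value units.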
